A study of Homo sapiens with 16 samples.

Results

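The genes described are 8 components of the pathway from phosphoinositide 3-kinase (PI3K) to AKT and mTOR, namely AKT1, AKT2, PIK3CA, PIK3CB, PIK3CD, PIK3R1, MTOR and RPTOR, out of 20162 protein-coding genes. They were listed by name, and the list was selected on readouts of these same libraries, so the values of the 8 genes are given as a description with no test. Each gene was taken with 5 kb on each side (hg19), and the percent of that window covered by called broad regions (islands) was measured in 16 CUT&Tag libraries. In CUT&Tag an antibody against a histone mark brings a transposase to it, and DNA beside the mark is cut and tagged. All libraries came from BE2C, one MYCN-amplified human neuroblastoma line. The marks were trimethylated lysine 27 of histone H3 (H3K27me3) and monomethylated lysine 4 (H3K4me1). Cells received the control siRNA siCtrl or siKDM6B33, a single siRNA against the H3K27me3 demethylase KDM6B, or they received 0.1% DMSO or 2.5 µM of the KDM6 inhibitor GSK-J4, and all were collected after 72 h. Each treatment gave 2 libraries per mark. The study calls the replicates biological, while the labels do not say which cultures they came from.

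In this pathway, PI3K adds a phosphate to a membrane lipid after a growth factor receptor is engaged, and the lipid recruits AKT, a kinase that promotes growth and survival. PIK3CA, PIK3CB and PIK3CD encode the catalytic subunits p110α, p110β and p110δ, and PIK3R1 encodes the regulatory subunit p85α. AKT1 and AKT2 encode 2 AKT kinases. MTOR encodes a kinase downstream of AKT, and RPTOR encodes Raptor, which presents substrates to it in the complex mTORC1. H3K27me3 is laid down by Polycomb repressive complex 2 and marks repressed genes, while H3K4me1 is common at enhancers and on the flanks of active promoters. KDM6B removes methyl groups from H3K27.

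The libraries of the compound experiment differed from those of the knockdown experiment in how the marks overlapped. Over the genome, 50.1% to 66.9% of the H3K27me3 island length in the 4 DMSO and GSK-J4 libraries lay inside H3K4me1 islands of the same treatment and number, against 8.89% to 11.4% in the 4 siRNA libraries. Between 37.0% and 46.3% of the H3K27me3 island length in the compound experiment lay inside H3K27me3 islands of the siCtrl library with the same number, beside 51.1% and 52.5% in the knockdown libraries. GSK-J4 replicate 1 also stood apart from its replicate, with 16675 H3K27me3 islands of a score of at least 50.0 against 8005 of at least 97.2. The identity of the cells was looked at through marker genes of the adrenergic neuroblastoma state. HAND2, GATA3, ISL1 and MYCN held H3K4me1 islands in all 8 libraries of that mark, PTPRC, CD3E and ALB in none, EPCAM in 3 and the fibroblast gene COL1A1 in 8. The window of MYCN, which is amplified in these cells, was covered over 95.6% in all 8 libraries of each mark. Narrow peaks are calls on a few tags: at those of the 8 genes the median summit held 5 tags for H3K27me3 and 8 for H3K4me1.

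The sites at which the calls recurred are shown before the values. Each run is 201 bases on the strand of the gene from GRCh37, the build of the lists, and distances are from the canonical transcription start. The first was chosen because it held a narrow peak of both marks, 26.98 kb from the AKT1 start and just past the gene's 3′ end, at chr14:105235005-105235205 on the minus strand and in no annotated transcript. Its capitals mark the CTCF core consensus, which was found on the opposite strand to the gene and was searched on both strands. Within 100 bases of the summit, this consensus was present at 1.11% of all H3K27me3 and 1.1% of all H3K4me1 narrow peaks of DMSO replicate 1, and in 0.415% of promoters. The second, 2.1 kb upstream of AKT1 (chr14:105264088-105264288, minus strand), carried narrow peaks of H3K27me3 in both GSK-J4 libraries. The third lies in intron 29 of RPTOR, 414.24 kb from its start (chr17:78932782-78932982, plus strand), and was called in 7 of 8 H3K27me3 and 8 of 8 H3K4me1 libraries. In these and the promoters that follow, capitals mark CpG dinucleotides where no CTCF core was found.
AKT1 +26.98 kb: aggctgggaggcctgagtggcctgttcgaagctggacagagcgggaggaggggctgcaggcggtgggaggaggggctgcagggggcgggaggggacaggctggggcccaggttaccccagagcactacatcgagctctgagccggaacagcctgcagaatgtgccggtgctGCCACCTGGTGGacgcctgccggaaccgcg
AKT1 −2.1 kb: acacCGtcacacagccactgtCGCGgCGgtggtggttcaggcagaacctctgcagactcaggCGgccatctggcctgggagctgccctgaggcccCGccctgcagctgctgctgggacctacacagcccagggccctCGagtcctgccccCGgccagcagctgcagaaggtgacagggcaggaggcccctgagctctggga
RPTOR +414.24 kb: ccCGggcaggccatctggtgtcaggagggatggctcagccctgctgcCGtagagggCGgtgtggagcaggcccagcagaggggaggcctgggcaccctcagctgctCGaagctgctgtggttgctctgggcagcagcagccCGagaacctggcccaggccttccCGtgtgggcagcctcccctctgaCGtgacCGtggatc

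The AKT1 and RPTOR sites were rich in G and C (69.7%, 69.2% and 69.2%), with a ratio of observed to expected CpG of 0.487, 0.33 and 0.34. The medians were 64.7% and 0.776 over the 19529 promoters. Over the narrow peaks of DMSO replicate 1 they were 54.2% and 0.299 for H3K27me3, and 52.7% and 0.244 for H3K4me1. The CpG ratio of these sites thus lay below the promoter median and above the peak medians. A match to a motif is a description of the letters and not evidence of binding. Of the 8 genes, AKT1 had the highest H3K27me3 coverage of any library, and MTOR, PIK3CA and PIK3CB had no H3K27me3 island in any of the 8 libraries.

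**Figure D1:**
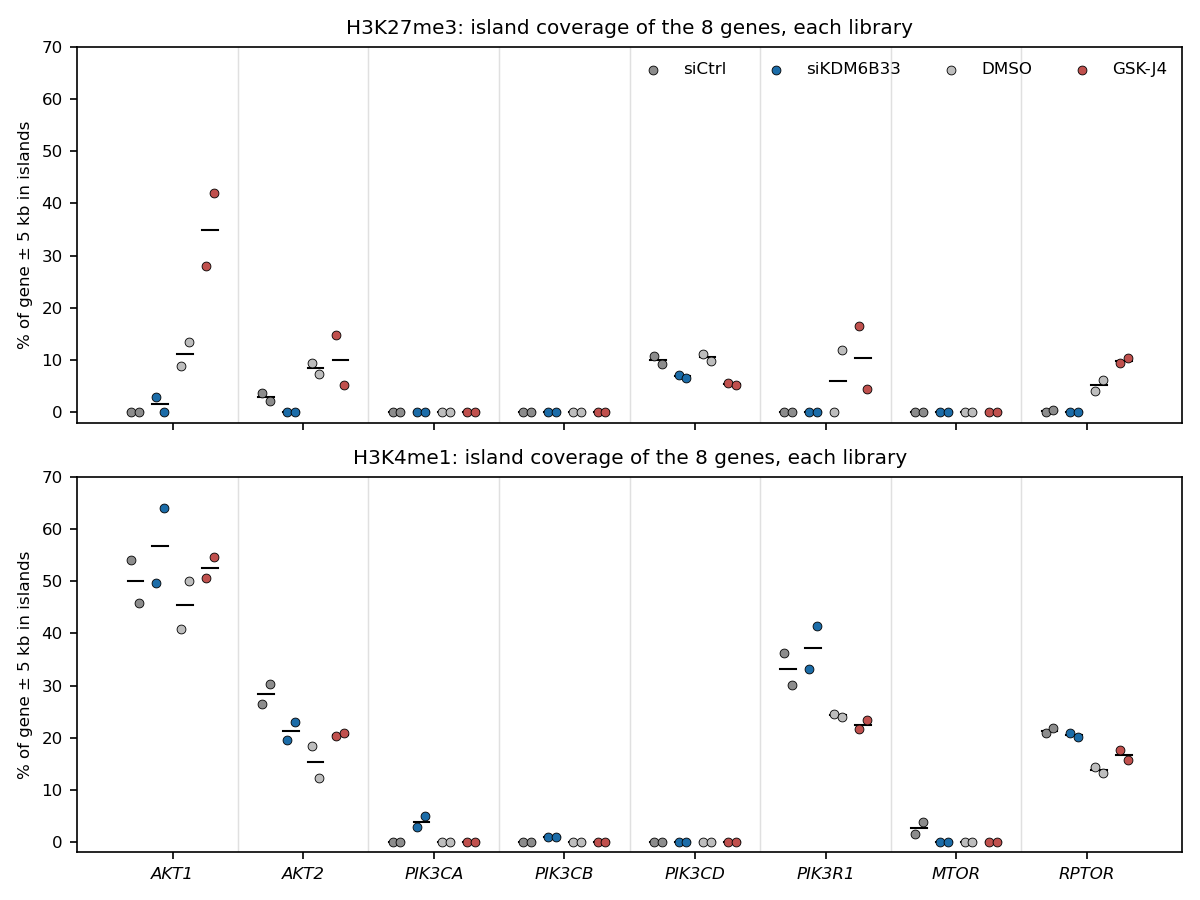
Percent of each gene with 5 kb on each side covered by islands (y axis) for the 8 genes (x axis), H3K27me3 above and H3K4me1 below. Each point is 1 library and each black line the mean of 2. AKT1 in GSK-J4 stands at 28.0% and 42.0% for H3K27me3, above 8.79% and 13.4% in DMSO, and PIK3CD is lower after both treatments.

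AKT1 (ENSG00000142208) lies on chromosome 14 from 105235686 to 105262088 on the minus strand. H3K27me3 islands covered 0% of its window in both siCtrl libraries, 2.99% and 0% after knockdown, 8.79% and 13.4% in DMSO, and 28.0% and 42.0% in GSK-J4. The compound groups did not overlap, while the knockdown groups met at 0. The mean was 11.1% ± 3.28 in DMSO and 35% ± 9.88 in GSK-J4 (SD, n = 2 each), a difference of 23.9 points. Over all protein-coding genes, 5.52% lay above both controls in both GSK-J4 libraries. Of these 1113 genes, 128 (11.5% of them and 0.635% of all) did so by at least as much as AKT1. When each list was reduced to its highest-scoring islands of equal total length, the AKT1 groups overlapped (8.79% and 13.4% in DMSO, 28.0% and 12.9% in GSK-J4). The surroundings did not show the same separation: in the 100 kb beyond the window on each side, H3K27me3 covered 24.6% and 31.9% in DMSO and 27.5% and 33.1% in GSK-J4.

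Along AKT1 the H3K27me3 islands fell at 3 places. The 5′ flank was covered over 4.89 kb in DMSO replicate 2, 4.80 kb in GSK-J4 replicate 1 and 4.69 kb in GSK-J4 replicate 2, but over 0 kb in DMSO replicate 1. The 3′ end held an island in DMSO replicate 1 (24.7 to 27.9 kb from the start), GSK-J4 replicate 1 (25.1 to 27.3 kb) and GSK-J4 replicate 2 (24.3 to 28.5 kb), and none in DMSO replicate 2. Taken singly, neither end separated the groups. The first 10 kb of the gene was free of H3K27me3 islands with DMSO and held an island of 3.20 kb (0.7 to 3.9 kb, exons 2 and 3 with the introns beside them) and one of 6.40 kb (1.1 to 7.5 kb) in the GSK-J4 libraries. Their scores were 69.3 and 101, and the former lay under the lowest score of every other H3K27me3 list of this comparison (83.1 and 90.7 in DMSO, 97.2 in GSK-J4 replicate 2). With every list held to scores of at least 97.2, an alternative chosen after the data were seen, AKT1 was covered over 0% and 13.4% in DMSO and 19.2% and 42.0% in GSK-J4, and the groups did not overlap. This floor removed the island from 0.7 to 3.9 kb, so that the first 10 kb held none in GSK-J4 replicate 1, as in both DMSO libraries. The region from 10 to 20 kb held no H3K27me3 island in any library. The flanks also hold parts of neighbouring genes, ZBTB42 upstream (−9.0 to −4.8 kb) and SIVA1 past the 3′ end (from 27.3 kb).

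**Figure D2:**
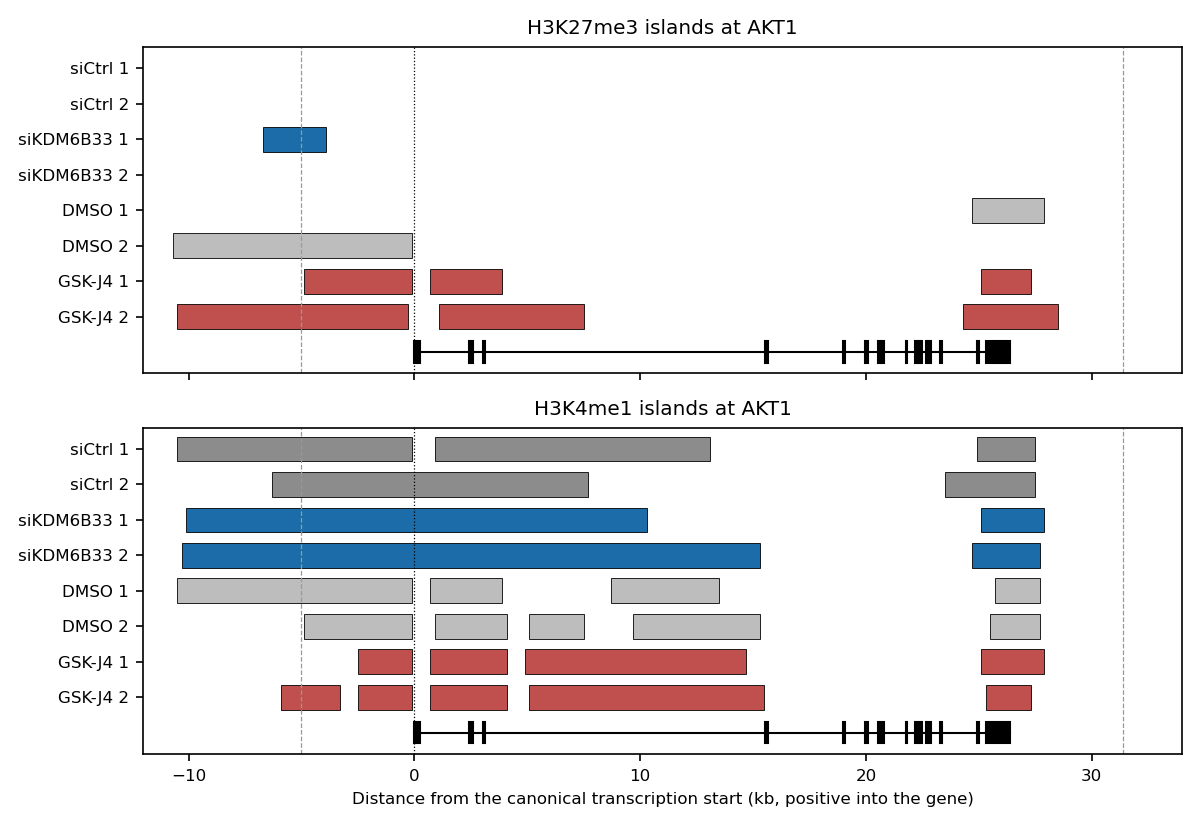
Islands at AKT1 in the 16 libraries (rows) by distance from the transcription start in kb (x axis), H3K27me3 above and H3K4me1 below. Boxes on the line are exons of the canonical transcript, the dotted line is the start and dashed lines are the ends of the window. H3K27me3 islands of the compound experiment overlap H3K4me1 islands in part, and those from 0.7 to 7.5 kb appear with GSK-J4 and not with DMSO.

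H3K4me1 was called over AKT1 in all libraries, at 54.1% and 45.8% of the window with siCtrl, 49.7% and 64.0% after knockdown, 40.9% and 50.0% in DMSO, and 50.5% and 54.6% in GSK-J4. The knockdown groups overlapped, and the compound groups were 0.549 points apart at their nearest. By segment the compound groups lay apart in both directions. Over the first 10 kb H3K4me1 islands covered 45.1% and 59.1% in DMSO against 85.1% and 83.1% in GSK-J4, and over the 5 kb before the start 97.8% and 96.0% against 48.0% and 81.8%. The H3K27me3 islands of AKT1 lay inside H3K4me1 islands over 62.5% and 98.2% of their length in DMSO and over 76.5% and 73.8% in GSK-J4. Outside H3K4me1 islands, H3K27me3 covered 3.30% and 0.242% of the window with DMSO and 6.59% and 11.0% in GSK-J4, so that the groups stayed apart with a difference of 7.02 points in place of 23.9. This alternative, too, was added late. The part of this overlap in the AKT1 difference was not tested further.

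At the narrow peaks, the difference at AKT1 was small. H3K27me3 peaks in the window numbered 0 in each siCtrl and knockdown library, 2 and 2 in DMSO, and 4 and 2 in GSK-J4. The site 26.98 kb from the start, printed first above, was called for H3K4me1 in 8 of 8 libraries and for H3K27me3 in all 4 libraries of the compound experiment and none of the knockdown experiment. Its H3K27me3 fold over background was 6.27 and 7.19 in DMSO and 12.3 and 6.92 in GSK-J4 so that GSK-J4 replicate 2 lay below DMSO replicate 2. The summits held 6, 7, 14 and 7 tags. For H3K4me1 the fold at the same site ran from 12.4 to 20.7. At −2.1 kb H3K27me3 peaks were called in both GSK-J4 libraries (fold 4.24 and 5.88, summits of 5 and 7 tags) and in no DMSO library, and 1.5 kb into the gene in DMSO replicate 2 (4.95) and GSK-J4 replicate 1 (4.27). All 3 sites with an H3K27me3 peak in the compound experiment also held an H3K4me1 peak in it.

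The 5 genes with H3K27me3 coverage most like that of AKT1 over the 8 libraries were SLCO4A1, PSRC1, NRL, RHOBTB2 and EMP3. Their mean absolute difference from AKT1 was 2.1 to 2.68 points. Each held no H3K27me3 island in the 4 siRNA libraries. The closest, SLCO4A1, was covered over 12% and 15.0% in DMSO and 29.9% and 34.9% in GSK-J4.

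RPTOR (ENSG00000141564, chromosome 17 from 78518619 to 78940171, plus strand) was the other of the 8 genes with more H3K27me3 in both GSK-J4 libraries than in both DMSO libraries. H3K27me3 islands covered 0% and 0.371% of its window with siCtrl, 0% in both knockdown libraries, 4.07% and 6.25% in DMSO, and 9.45% and 10.3% in GSK-J4. The compound groups did not overlap, and the means were 5.16% ± 1.54 and 9.86% ± 0.590 (SD, n = 2 each). The number of islands went from 4 and 5 in DMSO to 12 and 8 in GSK-J4, while the whole lists held 7174 and 7397 islands against 16675 and 8005. Islands near 180, 236 and 314 kb from the start were called in both GSK-J4 libraries and in neither DMSO library, while those at the 3′ end, from 411.6 kb on, were called in all 4. In GSK-J4 replicate 1 the island near 314 kb scored 92.5, and the lowest of its RPTOR islands scored 68.5. Both lie under the lowest score of the GSK-J4 replicate 2 list (97.2). Of the H3K27me3 island length at RPTOR, 87.5% and 71.8% in DMSO and 98.5% and 85.1% in GSK-J4 lay inside H3K4me1 islands. The lengths inside were 15.371 of 17.571 kb and 19.371 of 26.971 kb in DMSO. With GSK-J4 they were 40.171 of 40.771 kb and 37.771 of 44.371 kb. The length outside H3K4me1 islands thus overlapped between the groups and was no larger on average with GSK-J4, unlike at AKT1. The part of the H3K4me1 overlap in the RPTOR difference was not tested further.

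**Figure D3:**
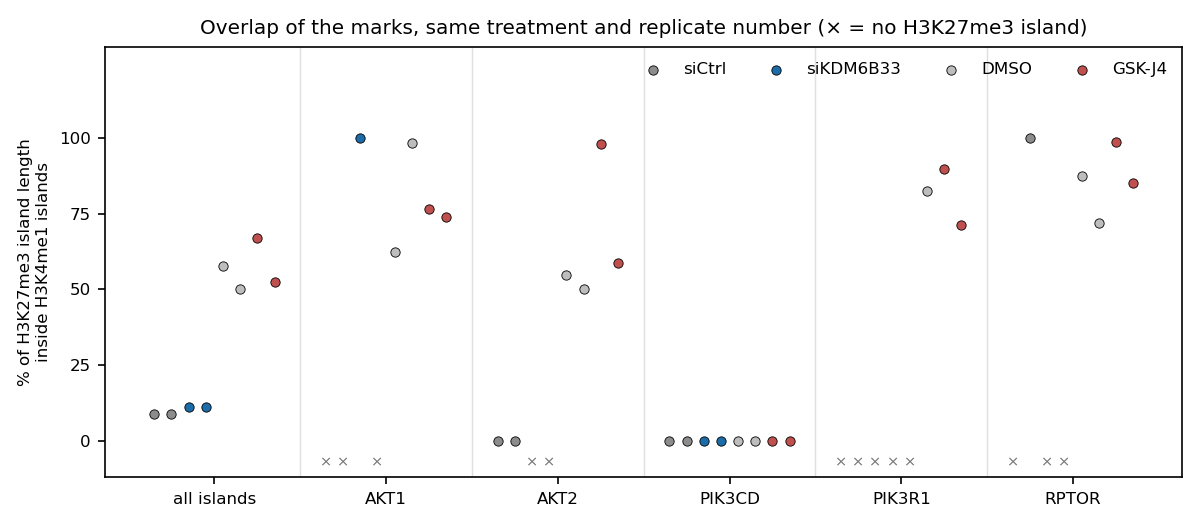
Percent of H3K27me3 island length inside H3K4me1 islands of the same treatment and replicate number (y axis), for all islands and for the 5 genes with an H3K27me3 island (x axis). Each point is 1 library and a cross is a library with no H3K27me3 island in the window. PIK3CD is at 0% in all 8 libraries, while the other genes lie between 50.0% and 98.5% in the compound experiment.

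H3K27me3 narrow peaks of RPTOR numbered 1 and 3 in siCtrl, 6 and 3 after knockdown, 12 and 10 in DMSO, and 25 and 19 in GSK-J4, and the whole lists of the compound experiment held 29691 and 34648 against 61141 and 40527. H3K27me3 peaks of the compound experiment fell at 32 sites, and 27 of these also held an H3K4me1 peak in that experiment. At the site in intron 29 printed above, the H3K27me3 fold was 17.8 and 9.97 in DMSO, 16.6 and 12.5 in GSK-J4, 8.16 in siCtrl replicate 2, and 2.83 and 2.85 after knockdown, with no peak in siCtrl replicate 1. This site thus did not separate DMSO from GSK-J4. Over all 8 genes, 49 of 65 sites with an H3K27me3 peak in the compound experiment held an H3K4me1 peak there, against 16 of 32 in the knockdown experiment. This contrast rested largely on RPTOR, with 27 of 32 against 3 of 11. AKT2 had 4 of 6 in both experiments, and PIK3R1 had 9 of 12 against 3 of 3.

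**Figure D4:**
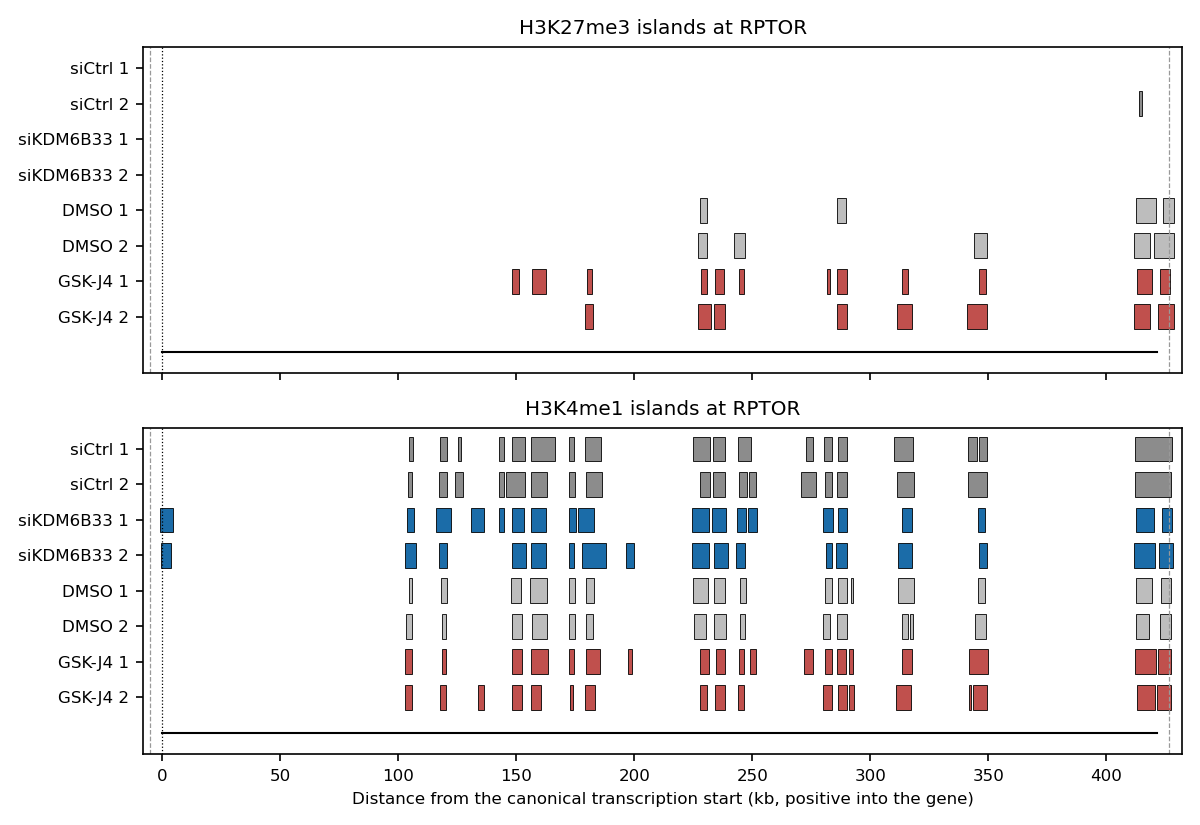
Islands at RPTOR in the 16 libraries (rows) by distance from the transcription start in kb (x axis), H3K27me3 above and H3K4me1 below. The line is the gene, the dotted line its start and the dashed lines the window. H3K27me3 islands number 12 and 8 in GSK-J4 against 4 and 5 in DMSO, and a H3K4me1 island at the start stands in both knockdown libraries.

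H3K4me1 covered 20.8% and 21.9% of RPTOR with siCtrl, 20.8% and 20.1% after knockdown, 14.4% and 13.3% in DMSO, and 17.7% and 15.7% in GSK-J4. The compound groups did not overlap here either, and the knockdown groups met.

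PIK3CD (ENSG00000171608, chromosome 1 from 9689947 to 9789172, plus strand), whose product p110δ is best known from leukocytes, went the other way. H3K27me3 islands covered 10.8% and 9.16% of its window with siCtrl and 7.14% and 6.59% after knockdown, 11.2% and 9.89% in DMSO and 5.68% and 5.13% in GSK-J4. Neither pair of groups overlapped. The means were 9.98% ± 1.17 and 6.87% ± 0.388 in the knockdown experiment, and 10.5% ± 0.906 and 5.40% ± 0.388 in the compound experiment (SD, n = 2 each). Over all genes, 3.25% were below both controls after knockdown and 4.03% after GSK-J4. There was no H3K4me1 island at PIK3CD in any library, but H3K4me1 narrow peaks were called at 0.06 kb in 3 libraries (fold 2.84 to 5.42) and at 37.84 kb in 4 (fold 3.32 to 4.65). An H3K27me3 island covered the first place in 8 libraries and the second in 7.

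H3K27me3 at PIK3CD sat at 2 places. One island spanned the canonical start in all 8 libraries, from 3.20 to 6.2 kb wide, and covered 99.4% to 100% of the 2 kb centred on the start. The other began 32 to 35.8 kb into the gene and was called in every library but GSK-J4 replicate 2. The width over the start was 6.2 and 5.00 kb in siCtrl and 4.00 and 3.4 kb after knockdown, but 5.20 and 3.4 kb in DMSO and 3.20 and 5.6 kb in GSK-J4. The second island was 5.6 and 5.00 kb in siCtrl, 3.80 kb in both knockdown libraries, 7 and 7.40 kb in DMSO, and 3.00 and 0 kb in GSK-J4. After knockdown both islands were narrower, while after GSK-J4 only the second set the groups apart. At the start the H3K27me3 fold was 9.78 and 10.6 in siCtrl and 9.48 and 5.85 after knockdown, while in the compound experiment it was 5.84 and 4.37 in DMSO and 6.50 in GSK-J4 replicate 1, with no peak in replicate 2. At 37.84 kb it was 7.63 and 8.24 in siCtrl against 5.18 and 5.17 after knockdown. At the same place it was 6.78 and 4.86 in DMSO and 5.67 and 6.99 in GSK-J4, which overlap. The 201 bases before the canonical start (chr1:9711588-9711788) held 14 CpG dinucleotides, shown in capitals because this is the start that H3K27me3 islands covered in every library.
PIK3CD promoter: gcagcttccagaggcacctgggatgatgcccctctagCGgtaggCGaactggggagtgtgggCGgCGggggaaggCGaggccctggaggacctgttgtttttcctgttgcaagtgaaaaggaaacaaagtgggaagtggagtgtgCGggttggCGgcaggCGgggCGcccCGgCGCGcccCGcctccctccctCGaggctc

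AKT2 (ENSG00000105221, chromosome 19 from 40736224 to 40791443, minus strand) held H3K27me3 islands over 3.68% and 2.15% of its window with siCtrl, 0% in both knockdown libraries, 9.51% and 7.36% in DMSO, and 14.7% and 5.21% in GSK-J4. It lay below both controls after knockdown, and the compound groups overlapped. H3K27me3 narrow peaks numbered 2 and 2 in siCtrl and 3 and 2 after knockdown, and at −0.19 kb one was called in both knockdown libraries (fold 2.83 and 3.80) and in neither siCtrl library. The siCtrl islands stood past the 3′ end, 57.3 to 59.7 kb and 58.3 to 59.7 kb from the start, so that the call was lost without flanks. In the compound experiment all 4 libraries held an island around 52 to 54 kb, and GSK-J4 replicate 1 alone also had islands at 2.7 to 8.3 kb and over the start. A narrow peak 53.69 kb into the gene, in exon 14 of the canonical transcript, was called for H3K4me1 in 8 of 8 libraries and for H3K27me3 in the same 4 compound libraries and in no siRNA library, the same pattern as at the 3′ end of AKT1. Its H3K27me3 fold was 4.35 and 4.29 in DMSO and 6.79 and 5.86 in GSK-J4. H3K4me1 covered 26.4% and 30.4% of AKT2 in siCtrl, 19.6% and 23% after knockdown, 18.4% and 12.3% in DMSO, and 20.2% and 20.9% in GSK-J4. AKT2 thus lay below both controls for H3K4me1 after knockdown and above both after GSK-J4.

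PIK3R1 (ENSG00000145675, chromosome 5 from 67511568 to 67597649, plus strand) had no H3K27me3 island in the 4 siRNA libraries. The coverage was 0% and 11.9% in DMSO and 16.4% and 4.37% in GSK-J4, so the groups overlapped. DMSO replicate 2 held 1 island (34 to 45.4 kb), GSK-J4 replicate 1 held 5 (33.8 to 37.8, 39.2 to 44.4, 57.2 to 58.4, 69.8 to 73 and 87 to 89.2 kb), and GSK-J4 replicate 2 held 1 (69.2 to 73.4 kb). Its H3K4me1 coverage was 36.2% and 30.2% in siCtrl, 33.1% and 41.4% after knockdown, 24.6% and 23.9% in DMSO, and 21.6% and 23.3% in GSK-J4. The knockdown groups overlapped, and the compound groups were 0.624 points apart at their nearest and overlapped without flanks.

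At the start of PIK3R1 the compound groups stood far apart for H3K4me1. Within 1 kb of the start, islands covered 99.2% and 89.2% in DMSO and 0% in both GSK-J4 libraries, beside 100% and 89.2% in siCtrl and 100% in both knockdown libraries. The DMSO islands over the start had low scores, 74.6 and 94.7. The lowest scores of these 2 lists were 52.6 and 48.8, and the highest at PIK3R1 were 258 and 303. Over all genes, 4.45% of promoters were below both controls after GSK-J4, and PIK3R1 was the only one of the 8. At −0.09 kb the H3K4me1 fold was 4.15 and 4.19 in DMSO and 4.33 in GSK-J4 replicate 1, with no peak in replicate 2. At −0.34 kb it was 4.98 and 5.04 in DMSO, with no peak in either GSK-J4 library. No H3K27me3 island covered this start in any library. The promoter (chr5:67511383-67511583) was the richest in CpG of those shown, with 28 in 201 bases.
PIK3R1 promoter: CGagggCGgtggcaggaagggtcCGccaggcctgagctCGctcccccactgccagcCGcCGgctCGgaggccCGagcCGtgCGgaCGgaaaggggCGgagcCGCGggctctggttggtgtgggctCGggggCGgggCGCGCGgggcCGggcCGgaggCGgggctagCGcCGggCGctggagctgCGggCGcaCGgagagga

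**Figure D5:**
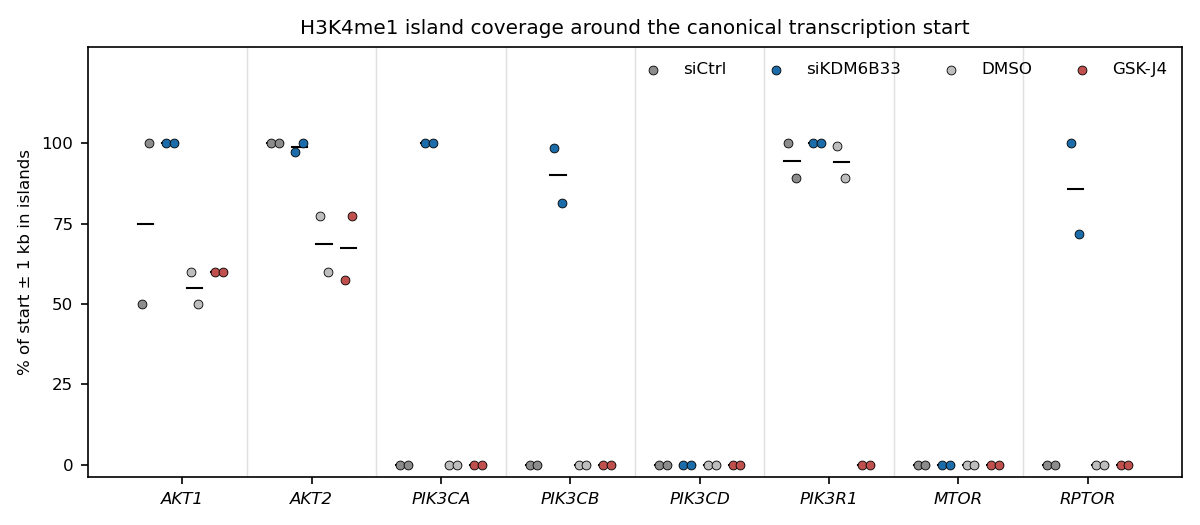
Percent of the 2 kb centred on the canonical transcription start covered by H3K4me1 islands (y axis) for the 8 genes (x axis). Each point is 1 library and each black line the mean of 2. PIK3CA, PIK3CB and RPTOR are covered after KDM6B knockdown and at 0% in all other libraries, and PIK3R1 is at 0% in GSK-J4.

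PIK3CA, PIK3CB and RPTOR held an H3K4me1 island over the start in both knockdown libraries and in neither siCtrl library. PIK3CA (ENSG00000121879, chromosome 3 from 178865902 to 178957881, plus strand), a gene often mutated in cancer, was covered within 1 kb of its start over 0% in siCtrl and 100% in both knockdown libraries. PIK3CB (ENSG00000051382, chromosome 3 from 138371540 to 138553770, minus strand) was covered over 0% in siCtrl and 98.5% and 81.5% after knockdown. RPTOR was covered over 0% in siCtrl and 100% and 71.8% after knockdown. All 3 were at 0% in DMSO and with GSK-J4. Over all promoters, 38.9% lay above both controls in this comparison, so 3 of 8 is near the background and is no result about these genes. MTOR and PIK3CD held no H3K4me1 island at the start in any library, and for AKT1, AKT2 and PIK3R1 the groups met or overlapped.

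In the whole windows these promoter islands were small. PIK3CA was covered by H3K4me1 over 2.94% and 4.90% after knockdown and PIK3CB over 1.04% in both, and both were at 0% in the other 6 libraries. At −0.19 kb from PIK3CA, inside a transcript that starts before the canonical one, the H3K4me1 fold was 5.13 and 10.5 in siCtrl and 7.89 and 12.1 after knockdown, and these groups overlap. At 0.42 kb into PIK3CB, in intron 1, it was 4.59 and 2.77 in siCtrl and 12.5 and 9.95 after knockdown, and these do not. In the compound experiment the PIK3CA site held no H3K4me1 peak and the PIK3CB site one, of fold 2.84, in GSK-J4 replicate 2. The PIK3CB site (chr3:138553250-138553450, minus strand) and the 201 bases before the start of RPTOR (chr17:78518437-78518637) are shown because the island appeared at these starts. The PIK3CA, PIK3CB and RPTOR stretches held 10, 21 and 15 CpG dinucleotides, with a ratio of observed to expected of 0.695, 0.804 and 1.05, and none of them held the MYCN-type E-box CACGTG, which is in 6.96% of promoters.
PIK3CB +0.42 kb: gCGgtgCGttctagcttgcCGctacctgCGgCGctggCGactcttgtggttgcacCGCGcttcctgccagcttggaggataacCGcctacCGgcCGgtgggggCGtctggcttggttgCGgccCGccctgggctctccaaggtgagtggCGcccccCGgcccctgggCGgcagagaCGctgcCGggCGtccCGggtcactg
RPTOR promoter: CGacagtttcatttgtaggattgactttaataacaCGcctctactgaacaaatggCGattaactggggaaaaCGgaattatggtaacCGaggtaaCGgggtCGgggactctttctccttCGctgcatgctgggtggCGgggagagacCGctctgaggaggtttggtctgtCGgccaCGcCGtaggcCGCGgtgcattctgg

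For H3K27me3, PIK3CA, PIK3CB and MTOR had scattered narrow peaks with summits of 2 to 4 tags and no island. The peaks numbered 3, 2 and 0 in the 4 siRNA libraries together and 1, 3 and 9 in the 4 compound libraries. One of those that recurred lay 83.79 kb into MTOR, in DMSO replicate 1 and in both GSK-J4 libraries, at a fold of 2.91, 3.81 and 2.86. Another lay at −0.19 kb from PIK3CA, in siCtrl replicate 1, knockdown replicate 2 and DMSO replicate 2, at a fold of 3.77, 3.80 and 3.80.

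MTOR (ENSG00000198793, chromosome 1 from 11166592 to 11322613, minus strand) held H3K4me1 islands with siCtrl alone. They covered 1.45% and 3.85% of the window, against 0% in both knockdown libraries, both DMSO and both GSK-J4 libraries. Both siCtrl libraries shared an island 127.4 to 129.8 kb into the gene, and replicate 2 had another at 81.2 to 85.2 kb. H3K4me1 narrow peaks in the window numbered 10 and 5 in siCtrl and 3 and 4 after knockdown.

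Counted together, 2 of the 8 genes lay above both controls for H3K27me3 in GSK-J4 (AKT1 and RPTOR) and 1 below (PIK3CD), beside 5.52% and 4.03% of all genes. After knockdown 0 lay above and 2 below (AKT2 and PIK3CD), beside 9.96% and 3.25%. For H3K4me1, 2 lay above (PIK3CA and PIK3CB) and 2 below (AKT2 and MTOR) after knockdown, beside 46.2% and 9.63%, and 3 above (AKT1, AKT2 and RPTOR) and 1 below (PIK3R1) with GSK-J4, beside 10.3% and 7.96%. The median difference over the 8 genes was 0 points after knockdown and 0.767 points in the compound comparison for H3K27me3, and 0.520 and 0 points for H3K4me1, against 0, 0, 1.03 and 0 over all genes. Among all genes with an island in the comparison, the medians were 1.01, 0.813, 4.44 and 0 points in the same order. The treated libraries were deeper than their controls for H3K27me3, and for H3K4me1 after knockdown. The genome background, in mean tags over a base, was 0.0395 and 0.0401 in siCtrl and 0.0539 and 0.0529 after knockdown for H3K27me3, and 0.0298 and 0.0338 in DMSO and 0.0507 and 0.0371 in GSK-J4. For H3K4me1 it was 0.0902 and 0.0849 in siCtrl against 0.107 and 0.105 after knockdown, while the compound groups overlapped (0.0569 and 0.0483 in DMSO, 0.0547 and 0.0559 in GSK-J4). The part of depth in the counts was not tested.

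A wider list of 36 further genes of the pathway was read in the same way. Some windows also hold other protein-coding genes, so that their coverage is not of the named gene alone. Examples are RPS6KB2 (CARNS1, CORO1B and PTPRCAP), BAD (GPR137 and PLCB3), PIK3R2 (such as IFI30 and MAST3) and TSC2 (NTHL1 and PKD1). No gene could pass the test used, since an exact two-sided permutation test of 2 against 2 libraries gives no p under 0.33, and every gene named for a difference had p = 0.33. For H3K27me3 after knockdown, 4 of 36 lay above both controls and 1 below, beside 9.96% and 3.25% of all genes. PIK3R6 and PIK3R5, neighbouring genes that encode regulatory subunits of p110γ, were highest: PIK3R6 was covered over 17.3% and 13.5% in siCtrl and 39.7% and 46.4% after knockdown, and PIK3R5 over 12% and 7.41% against 34.1% and 38.6%. INPP5D, which encodes the lipid phosphatase SHIP1, was covered over 7.83% and 9.91% against 22.7% and 24.1%. RICTOR, a subunit of mTORC2, was the 1 below, at 1.37% in both against 1.23% in both. This was a gap of 0.137 points in a window of 146 kb, and islands are called in steps of 200 bp.

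With GSK-J4, 3 of 36 lay above both DMSO libraries for H3K27me3 and 3 below, beside 5.52% and 4.03% of all genes. Those above included MAPKAP1 (2.29% and 1.64% against 2.50% and 3.64%) and INPP4B (0% in both against 0.288% and 0.360%). MAPKAP1 encodes a subunit of mTORC2 and INPP4B a lipid phosphatase. Neither came near the difference at AKT1. Those below were IRS2, an adaptor of the insulin receptor (17.8% and 23.7% against 13.2% and 14.1%), PIK3R6 (20.5% and 16.8% against 14.1% in both) and PIK3R2, which encodes p85β (26.3% and 25.6% against 24.1% and 24.8%). PIK3R6 thus lay above siCtrl after knockdown and below DMSO with GSK-J4, and whether these differences differ was not tested.

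For H3K4me1 after knockdown, 21 of 36 lay above both controls and 5 below, beside 46.2% and 9.63% of all genes. Of the 36, 29 held an H3K4me1 island in some library of that experiment, and among all genes that did, 66.5% lay above, so the list stood near the background. The knockdown libraries of this mark were the deeper ones, and the part of depth was not tested. The largest differences above were at RPS6KB2, an S6 kinase (42.9% and 44.1% against 78.3% and 77.2%), BAD, a pro-apoptotic target of AKT (29.3% and 31.8% against 57.5% and 63.8%), and IRS2 (21.0% and 21.9% against 47.8% and 54.1%). The largest below were at PRR5, a subunit of mTORC2 (28.0% and 30.6% against 17.9% and 13.6%), TSC2, which restrains mTORC1 (30.7% in both against 24.5% and 26.1%), and PIK3C2B (31.0% and 30% against 21.0% and 29.7%). With GSK-J4, 1 of 36 lay above and 3 below for H3K4me1, beside 10.3% and 7.96% of all genes. TSC2 was above (26.8% and 22.6% against 37.7% and 36.2%). PIK3R2 (34.3% and 31.4% against 14.6% and 15.3%), IRS1 (9.94% and 10.4% against 2.80% and 0%) and PRR5 (19.7% and 22.2% against 19.5% and 17.4%) were below.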

How the data were processed

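H3K27me3 and H3K4me1 were profiled by CUT&Tag in 16 BE2C libraries. Per the labels and the study's methods, the authors trimmed reads, aligned them to hg19 with BWA 0.7.12, removed duplicates with Picard 1.65 and kept uniquely mapped pairs within a size range. The submitters' notes also name Trim Galore 0.4.4, SAMtools 1.3.1 and bedtools 2.25.0. The authors called islands with SICER 1.1 in each library, and the deposited score of an island grows with depth and width. For narrow peaks the authors ran MACS2 (2.1.1 in the submitters' notes), and the deposited lists give for each peak a fold (ratio) of the summit over background, a −log10 p and a −log10 q. Replicates were not pooled. Spike-in scaling and reads per region were not used here.

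Genes came from GENCODE 44 mapped to GRCh37, the build of the files. An island ended 1 base past its listed end, since listed ends were the last base of a 200-bp window. Windows were genes with 5 kb on each side, and narrow peaks counted where their summit lay inside. A gene lay above or below when both treated libraries did so relative to both controls. Narrow peaks of the 16 libraries within 100 bp were joined into sites. The fold and −log10 p of a peak fix its summit tags and background, and 1101 of 1101 peaks of the 8 genes were solved within 0.02, with a range of 2 to 36 tags at H3K27me3 and 2 to 150 at H3K4me1 summits. Depth was read as the smallest background found at a library's most frequent peak values. Counting error of a few tags per summit limits each call.

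The members and lists were chosen with earlier results of these data known. Named genes were the 8 members, the 3 of the wider list with the largest difference in each direction, the 5 with H3K27me3 coverage nearest to that of AKT1, and the marker genes. Some genes that these rules name are not reported here. The 8 members have no test. For the wider list an exact two-sided permutation test was used. Alternatives left out the flanks, kept islands of at least 2 kb, cut lists to equal covered length, asked for a gap of 5 points, left out each library, paired replicates, or, chosen after seeing the data, set a common score floor or left out H3K4me1 islands. The coverage and summit computations were tested on simulated data. Python 3.11.15, NumPy 2.4.6, pandas 2.3.3, SciPy 1.17.1 and matplotlib 3.10.9 were used.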

Additional observations from a re-analysis of the deposited data

How the results depend on the processing

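The difference in H3K27me3 coverage of AKT1, GSK-J4 minus DMSO, was 23.9 points and kept its direction under every alternative run. It was 9.34 points at equal covered length, where the groups overlapped, and 7.02 points outside H3K4me1 islands. It ranged from 16.9 points without GSK-J4 replicate 2 to 30.9 points without GSK-J4 replicate 1. The difference in narrow peaks at AKT1 was 1, ranged from 0 to 2 when 1 library was left out, and was 0 at −log10 q of at least 5 and without flanks.

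Counts are given as genes above or below both controls, first as reported. Without flanks, the members below went from 2 to 1 for H3K27me3 knockdown and from 1 to 0 for H3K4me1 compound, and the wider list went from 1 to 2 below for H3K27me3 knockdown, from 1 to 3 above and from 3 to 5 below for H3K4me1 compound. With islands of at least 2 kb, members below for H3K27me3 knockdown went from 2 to 1, and the wider list from 1 to 2 below there, from 3 to 1 above for H3K27me3 compound, from 5 to 3 below for H3K4me1 knockdown and from 1 to 2 above for H3K4me1 compound. At equal covered length, members above went from 2 to 1 for H3K27me3 compound and from 3 to 1 for H3K4me1 compound, and the wider list from 1 to 3 below for H3K27me3 knockdown, from 3 to 0 above for H3K27me3 compound and from 3 to 7 below for H3K4me1 compound. With a gap of at least 5 points, the members left were 1 above for H3K27me3 compound (AKT1) and 0 in every other count, and the wider list held 0 below for H3K27me3 knockdown, 0 above and 0 below for H3K27me3 compound, and 9 above and 1 below for H3K4me1 knockdown. With the common score floor, the wider list went from 3 to 1 above for H3K27me3 compound and from 5 to 3 below for H3K4me1 knockdown. The cause of these changes was not tested.

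With 1 library left out, the members ranged from 0 to 1 above and 2 to 3 below for H3K27me3 knockdown, 2 to 4 above and 1 to 2 below for H3K27me3 compound, and 2 to 4 above and 2 to 3 below for H3K4me1 knockdown, and stayed at 3 above and 1 below for H3K4me1 compound. The highest counts of members above came without siKDM6B33 replicate 2 for H3K27me3 knockdown (1), without GSK-J4 replicate 2 for H3K27me3 compound (4), and without siCtrl replicate 1 or siKDM6B33 replicate 1 for H3K4me1 knockdown (4). The 2 members below for H3K27me3 compound came without GSK-J4 replicate 1. The wider list ranged from 4 to 8 above and 1 to 3 below, 4 to 10 above and 4 to 8 below, 21 to 22 above and 5 to 6 below, and 3 to 5 above and 5 to 9 below in the same order. Leaving out any library of H3K27me3 knockdown, H3K27me3 compound or H3K4me1 compound raised at least 1 of these wider counts by over 1.5 times. A count with 1 library against 2 has fewer conditions to meet.

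The labels do not say whether same-numbered libraries share a culture, and the correlation of their deviations cannot decide it. Over 20162 genes it was −0.0155, 0.0789, −0.00479 and −0.0466 in the 4 comparisons. With the replicate block, in which both same-numbered pairs had to move one way, the wider list held 5 above for H3K27me3 compound and 3 above and 5 below for H3K4me1 compound, and the AKT1 difference stayed at 23.9 points. The other counts stayed within 1.5 times. Summits of 2 to 36 tags for H3K27me3 limit what these lists can show.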
